A study of Mus musculus with 18 samples.

Results

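The circadian clock genes Per1, Per2, Per3, Dbp, Nr1d1, Nr1d2, Arntl, Ciart, Tef and Cry1 were followed in the mouse hippocampus on oligonucleotide microarrays. They are 10 of 18193 genes that the array's annotation names, chosen by symbol, and every probe set annotated to any of the 10 symbols was taken, which gave 22 of the 45101 probe sets of the array. RNA came from male mice of the C57Bl/6 strain, with 3 arrays in each of 6 groups. IH5DR2 mice underwent 5 days of intermittent hypoxia treatment (IHT) and then 64 h of normoxia, which the labels give as 2 days. IH5D mice were sacrificed as soon as the last of 5 daily sessions ended, and IH28D mice in the same way after 28 days. The 12 m mice were reared for 12 months without IHT, Ctrl28 mice were kept in normoxia for 28 days as the control of IH28D, and Ctrl mice were untreated. The young mice entered the experiments at 10 weeks of age, no label names a transgene or mutant allele, and the age of Ctrl at sacrifice is not given in the sources used here. Each daily session lasted 8 h, between 9:00 and 17:00, in cycles of 3 min in which 1 min of nitrogen lowered inspired oxygen to 5% and 2 min of room air returned it to 21%. IH5D and IH28D hippocampi were therefore taken around 17:00 and IH5DR2 hippocampi around 9:00, and no hour is given for the 12 m, Ctrl28 and Ctrl groups. In comparisons with these groups, treatment or age cannot be told apart from the hour of sampling. The labels do not say whether the arrays of a group came from separate mice, so a p-value speaks only of the spread among arrays, and that spread may be technical.

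The mammalian clock is a feedback loop of transcription that runs in nearly every cell. BMAL1, the product of Arntl, pairs with CLOCK and activates genes that carry an E-box, among them the Per and Cry genes, whose proteins return to the nucleus and shut their own activator down. The same pair drives Nr1d1 and Nr1d2, nuclear receptors that repress Arntl, as well as Ciart, a further repressor of the pair, and Dbp and Tef, which carry the rhythm to output genes through D-boxes. RNA of Dbp, of Per2 and of the Nr1d genes typically crests at other hours of the day than RNA of Arntl, so the hour of sampling matters for all of them. Neuronal activity and glucocorticoids also induce Per1 within a short time.

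The DNA just upstream of these genes was searched for motifs through which the loop can be read. Windows of 250 bases before an annotated start were taken from RefSeq (GRCm38.p6), where all genes but Per2 had windows, 12 in all for 9 genes. On either strand they were searched for the E-box CACGTG, its variant the E'-box CACGTT, the D-boxes TTATGTAA and TTACGTAA, and AGGTCA, a core that nuclear receptors bind. Of 32851 windows of this length, 6.02% held the E-box, 3.85% the E'-box, 0.931% a D-box and 14.02% AGGTCA. Ciart held 3 E-boxes, beginning 116, 58 and 44 bases before its start. Per1 held 1 at 166 bases, Cry1 1 at 60 bases beside an E'-box at 79, and each of the 2 windows of Tef held 1, at 127 and 138 bases. The D-box appeared in Per3 alone among the 9 genes, at 205 and 158 bases, AGGTCA in Per1 and Nr1d2, at 137 and 77 bases, and an E'-box in Nr1d1 at 28 bases. The windows of Dbp and Arntl contained none of these letters, which says nothing of elements elsewhere in the genes. Upstream stretches of 5 genes with a call follow 5′ to 3′ in lower case, with each match in capitals. They end where the annotated span of the gene begins, which for Dbp, Ciart and Per3 lies before the start from which positions are counted, so that 103, 221 and 208 of the 250 bases are given. The windows of Per1 and Arntl lie within the annotated genes and are not given.
Dbp (GRCm38.p6, chr7:45704997-45705099, plus strand): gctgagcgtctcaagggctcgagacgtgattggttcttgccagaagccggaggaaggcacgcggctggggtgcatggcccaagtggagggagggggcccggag
Ciart (GRCm38.p6, chr3:95882258-95882478, minus strand): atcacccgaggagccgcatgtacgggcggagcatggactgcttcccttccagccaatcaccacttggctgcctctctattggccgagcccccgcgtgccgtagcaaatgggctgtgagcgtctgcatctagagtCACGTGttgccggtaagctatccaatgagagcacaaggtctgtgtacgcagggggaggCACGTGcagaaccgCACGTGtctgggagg
Tef (GRCm38.p6, chr15:81802423-81802672, plus strand): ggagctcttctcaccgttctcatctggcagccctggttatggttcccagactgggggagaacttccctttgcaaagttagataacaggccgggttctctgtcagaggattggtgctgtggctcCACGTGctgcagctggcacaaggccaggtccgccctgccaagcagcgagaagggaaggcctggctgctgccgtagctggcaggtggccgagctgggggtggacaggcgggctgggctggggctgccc
Per3 (GRCm38.p6, chr4:151044708-151044915, minus strand): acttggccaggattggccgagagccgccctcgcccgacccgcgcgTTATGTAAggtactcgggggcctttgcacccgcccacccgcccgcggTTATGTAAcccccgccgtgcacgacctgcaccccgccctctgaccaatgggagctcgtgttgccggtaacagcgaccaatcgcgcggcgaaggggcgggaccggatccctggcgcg
Nr1d2 (GRCm38.p6, chr14:18239107-18239356, minus strand): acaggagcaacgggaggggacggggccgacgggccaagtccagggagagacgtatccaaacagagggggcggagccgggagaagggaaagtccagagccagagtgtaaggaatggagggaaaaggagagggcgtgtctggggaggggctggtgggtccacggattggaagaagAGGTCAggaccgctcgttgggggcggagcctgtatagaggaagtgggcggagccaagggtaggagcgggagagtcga

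The value of a probe set is its MAS5 signal, a summary of the brightness of its probes scaled so that the trimmed mean of each array is about 100 (100.033 to 100.041 on the 18 arrays). Signals are given unlogged and differences on the log2 scale, and signals of different probe sets cannot be set against each other. Of the 22 probe sets, 17 had a mean signal above 20 over all arrays, the minimum for a test, and each of the 10 genes kept at least 1 of them. Each gene is represented by its probe set of highest mean signal. The 5 probe sets below the minimum, of Per2, Per3, Nr1d2 and Tef, had means of 2.87 to 15.2 and were not tested. A gene rose or fell where the adjusted p of limma, over 22932 probe sets, was below 0.05.

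The Ctrl28 arrays and 1 of the 12 m arrays stood apart from the rest. The gap between 3' and 5' probe sets of the manufacturer's Actb and Gapdh controls, which widens as RNA shortens, was 0.82 to 2.39 (log2) on Ctrl28 arrays and 0.62 to 0.86 on 12 m arrays, against 0.33 to 0.53 on the other 12 arrays, and its top value was that of Ctrl28 replicate 1. Results that use Ctrl28 are therefore also given without that array. Of 9 markers of hippocampal neurons, 7 were lower on 12 m replicate 3 than on every other array, and the list's mean log2 signal was 7.12 there. On that array Prox1 (17.003), a marker of the dentate gyrus, C1ql2 (14.7) and Fibcd1 (5.05) were below the minimum of 20, where the other 17 arrays had 60.7 to 197, 159 to 419 and 129 to 325, and Snap25, found in most neurons, was at 9825. The markers of hippocampal regions thus go against its label, and results that use 12 m are also given without it. The summed signal of 10 choroid plexus markers was 759 to 1801 on 12 m arrays, 17914 to 22245 on Ctrl28 arrays and 1910 to 20067 on Ctrl arrays. It was 3384 to 18605 on IH5D arrays, 5138 to 18635 on IH28D arrays and 10508 to 17928 on IH5DR2 arrays. Arrays of the same group thus differed widely in these markers, and the cause was not tested. In RNA of a whole tissue, fewer cells of a type and less RNA per cell cannot be told apart.

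**Figure D1:**
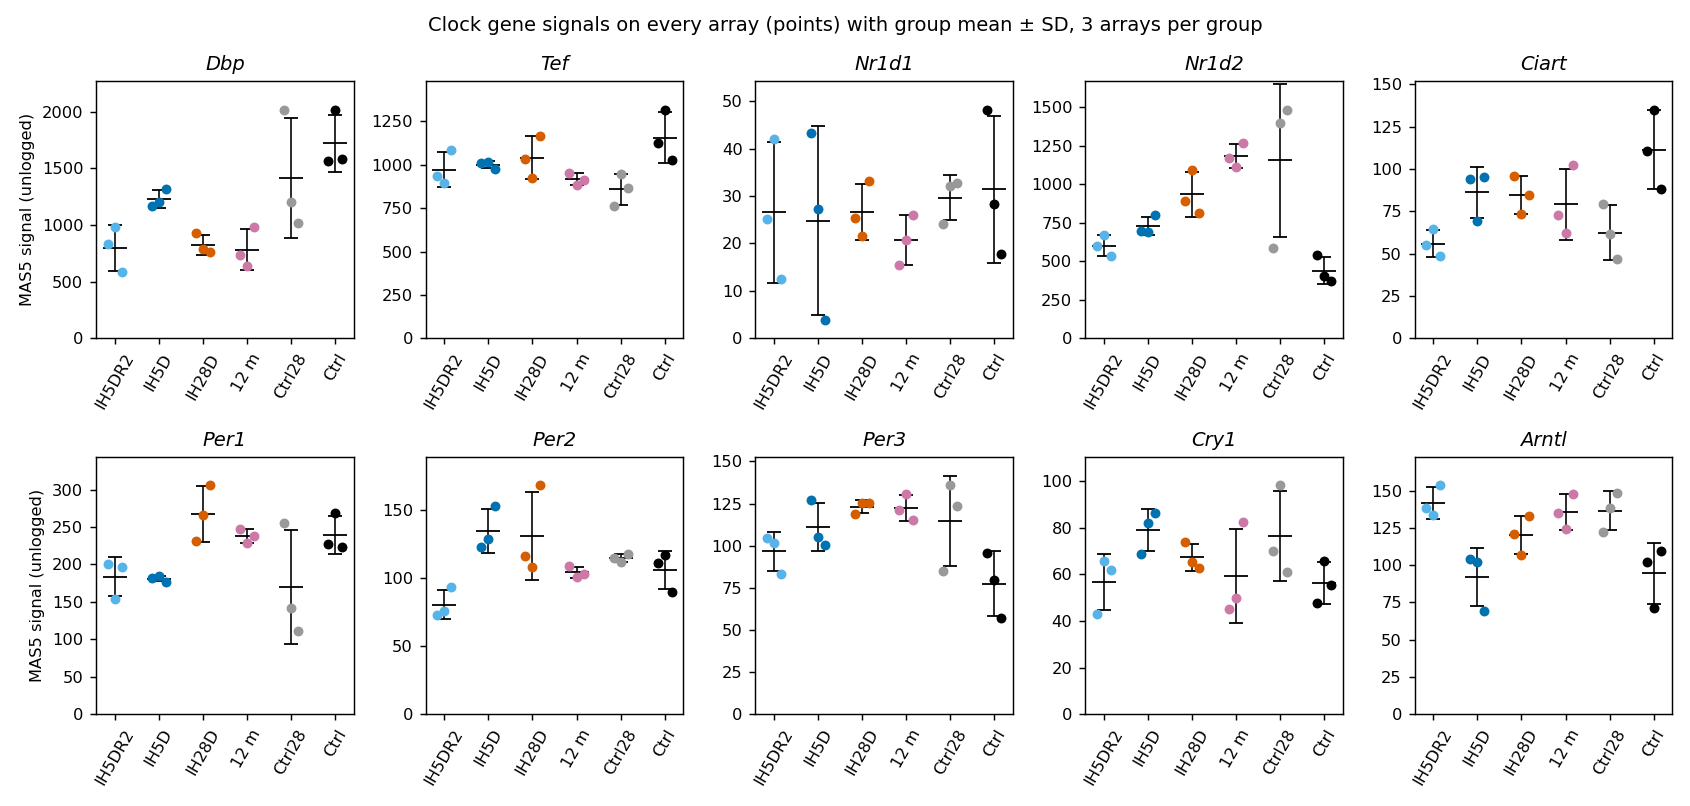
Unlogged MAS5 signals of the 10 clock genes (probe set of highest mean signal) on each of the 18 arrays, in arbitrary units, with points for arrays and lines for the group mean ± SD (n = 3 arrays per group). Nr1d2 lay higher on all IH5D, IH28D, 12 m and Ctrl28 arrays than on the Ctrl arrays (541, 406 and 373), and Dbp lay lower on all IH5DR2, IH5D, IH28D and 12 m arrays than on the Ctrl arrays.

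Dbp, a transcription factor of the PAR bZIP family and a direct output of the clock, was lower after recovery and at 12 months than in Ctrl. Its signals were 835, 980.0 and 582 in IH5DR2, 1168, 1198 and 1319.8 in IH5D and 927, 786 and 759.7 in IH28D. They were 733, 634 and 980.3 in 12 m, 2017, 1203 and 1021 in Ctrl28 and 1566, 2011 and 1579 in Ctrl. Every array of IH5DR2, IH5D, IH28D and 12 m was below the lowest Ctrl array, and every IH5DR2 array was also below every IH5D array, while Ctrl28 lay above every IH5DR2, IH28D and 12 m array, with replicate 1 far above its companions. By group mean, 12 m (783 ± 178, SD), IH5DR2 (799 ± 201) and IH28D (824 ± 90.00) were lowest and overlapped, IH5D followed at 1229 ± 80.5, and Ctrl28 (1414 ± 530.4) overlapped both IH5D and Ctrl (1719 ± 253). Against Ctrl, Dbp fell by 1.13 ± 0.23 in IH5DR2 (log2 difference ± SE, adjusted p = 0.0209) and by 1.15 ± 0.23 in 12 m (adjusted p = 0.00066). The differences of -0.48 ± 0.23 between IH5D and Ctrl (adjusted p = 0.18) and -0.72 ± 0.23 between IH28D and Ctrl28 (adjusted p = 0.0605) did not pass.

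A second probe set of Dbp, 1418174_at, gave 325, 348 and 236 in IH5DR2, 369, 331 and 397 in IH5D, 379, 309 and 271 in IH28D, 207, 201 and 279.9 in 12 m, 387, 236 and 230.3 in Ctrl28 and 528, 616 and 566 in Ctrl. On it all 15 other arrays, those of Ctrl28 among them, lay below the lowest Ctrl array. It fell by 0.93 ± 0.20 in IH5DR2 (adjusted p = 0.0256) and by 1.33 ± 0.20 in 12 m (adjusted p = 9.88e-05) against Ctrl. With all arrays the probe sets parted over the control groups. Ctrl28 against Ctrl, 1418174_at fell by 1.04 ± 0.20 (adjusted p = 0.00112) where the brighter 1438211_s_at differed by -0.34 ± 0.23 (adjusted p = 0.266), and IH28D against Ctrl28 it differed by 0.20 ± 0.20 (adjusted p = 0.594), with the sign opposite to that of the brighter one. Without Ctrl28 replicate 1 both fell in Ctrl28 against Ctrl, by 1.29 (adjusted p = 1.72e-05) and, for the brighter one, by 0.62 (adjusted p = 0.0129), and in IH28D against Ctrl28 their signs stayed opposite (0.44 and -0.43).

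Tef, the second PAR bZIP factor of the group, moved less. Its signals were 934, 895 and 1085 in IH5DR2, 1009.7, 1015 and 979 in IH5D and 1035, 924 and 1167 in IH28D. They were 956, 885 and 914 in 12 m, 763, 945 and 866 in Ctrl28 and 1126, 1318 and 1029 in Ctrl. The arrays of IH5D, 12 m and Ctrl28 all lay below the lowest Ctrl array, whereas IH5DR2 and IH28D overlapped with Ctrl. Against Ctrl, Tef fell by 0.33 ± 0.13 in 12 m (adjusted p = 0.038) and by 0.43 ± 0.13 in Ctrl28 (adjusted p = 0.0151), and differed by -0.20 ± 0.13 in IH5D (adjusted p = 0.297). Its dimmer probe set 1438033_at went the other way in Ctrl28, where it read 62.8, 114 and 94.6, above all 15 other arrays, against 56.2, 38.8 and 47.3 in Ctrl, and rose by 0.90 ± 0.27 (adjusted p = 0.0181), also without Ctrl28 replicate 1 (1.14, adjusted p = 0.00236).

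Nr1d2, which encodes the repressor REV-ERBβ, reached the largest log2 difference of the 10 genes. Its signals were 599, 674 and 535 in IH5DR2, 698, 693 and 799.6 in IH5D and 890.4, 1095 and 817 in IH28D. They were 1172, 1113 and 1268 in 12 m, 586, 1397 and 1485 in Ctrl28 and 541, 406 and 373 in Ctrl. All arrays of IH5D, IH28D, 12 m and Ctrl28 were above the highest Ctrl array, and the 3 groups IH5D, IH28D and 12 m did not overlap one another, with 12 m at the top. Ctrl28 replicate 1 lay far under its 2 companions. Against Ctrl, Nr1d2 rose by 1.45 ± 0.25 in 12 m (adjusted p = 0.000254) and by 1.30 ± 0.25 in Ctrl28 (adjusted p = 0.00109), and the differences of 0.75 ± 0.25 in IH5D (adjusted p = 0.0747) and 0.47 ± 0.25 in IH5DR2 (adjusted p = 0.238) did not pass. IH28D differed from Ctrl28 by -0.20 ± 0.25 (adjusted p = 0.669).

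Nr1d1, which encodes REV-ERBα, was hardly above the minimum, at a mean of 26.6 over the 18 arrays and 3.84 to 48.2 on single ones. Its groups overlapped in all comparisons and none passed (SE of each difference 0.65), so that a change of the size seen in Nr1d2 could have gone undetected.

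Ciart, also known as Chrono, which represses CLOCK and BMAL1 and carried the 3 E-boxes printed above, was lowest after recovery. Its signals were 55.1, 64.4 and 48.4 in IH5DR2, 93.9, 69.01 and 95.5 in IH5D and 95.97, 73.2 and 84.5 in IH28D. They were 72.8, 62.1 and 102 in 12 m, 79.2, 61.7 and 46.6 in Ctrl28 and 111, 135 and 88.4 in Ctrl. All IH5DR2 arrays lay below all IH5D and all Ctrl arrays, the Ctrl28 arrays lay below all Ctrl arrays, and IH5D, IH28D and 12 m overlapped with Ctrl. Against Ctrl, Ciart fell by 0.98 ± 0.23 in IH5DR2 (adjusted p = 0.0318) and by 0.85 ± 0.23 in Ctrl28 (adjusted p = 0.0112). It differed by -0.50 ± 0.23 in 12 m (adjusted p = 0.0802) and -0.37 ± 0.23 in IH5D (adjusted p = 0.311).

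Among the Per genes, which encode the repressors that pair with the cryptochromes, Per1 differed from Ctrl28 after 28 days of IHT otherwise than from Ctrl after 5 days. Per1 read 200.4, 154 and 197 in IH5DR2, 181, 184 and 177 in IH5D and 231, 266 and 306 in IH28D. It read 247, 229 and 238 in 12 m, 256, 141 and 111 in Ctrl28 and 227, 269 and 223 in Ctrl. IH5DR2 and IH5D lay below all Ctrl arrays, and IH28D lay above 2 of the Ctrl28 arrays but not above replicate 1. Per1 rose by 0.74 ± 0.22 in IH28D against Ctrl28 (adjusted p = 0.0452) and fell by 0.59 ± 0.22 in Ctrl28 against Ctrl (adjusted p = 0.0474). It differed from Ctrl by -0.40 ± 0.22 in IH5D (adjusted p = 0.236), -0.39 ± 0.22 in IH5DR2 (adjusted p = 0.255) and -0.01 ± 0.22 in 12 m (adjusted p = 0.983). In IH28D it differed from Ctrl by 0.15 (adjusted p = 0.602).

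Per2 read 72.8, 75.3 and 92.9 in IH5DR2, 122, 129 and 153 in IH5D and 116, 108 and 168 in IH28D. It read 108, 101 and 103 in 12 m, 114, 112 and 118 in Ctrl28 and 111, 116 and 89.7 in Ctrl. The IH5DR2 arrays were the lowest and lay clear of IH5D, IH28D, 12 m and Ctrl28, with only 1 Ctrl array inside their range, and the IH5D arrays lay above all Ctrl arrays. No difference of this probe set passed the test in any comparison. A dimmer probe set of Per2, 1457350_at, read 68.3, 80.1 and 80.5 in 12 m against 37.1, 47.4 and 33.7 in Ctrl, without overlap, and rose by 0.96 ± 0.23 (adjusted p = 0.00271), where the brighter one differed by -0.01 ± 0.17 (adjusted p = 0.957).

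Per3, the only gene with D-boxes in its window, was lowest in Ctrl. It read 105, 102 and 83.3 in IH5DR2, 127, 105 and 101 in IH5D and 119, 125 and 126 in IH28D. It read 121, 130.4 and 115 in 12 m, 84.7, 136 and 124 in Ctrl28 and 95.4, 79.7 and 57.2 in Ctrl. IH5D, IH28D and 12 m lay above all Ctrl arrays, and 1 array each of IH5DR2 and Ctrl28 reached into the Ctrl range. Against Ctrl, Per3 rose by 0.69 ± 0.20 in 12 m (adjusted p = 0.00835) and by 0.57 ± 0.20 in Ctrl28 (adjusted p = 0.0347), and the difference of 0.54 ± 0.20 in IH5D did not pass (adjusted p = 0.0924). Of its 4 tested probe sets, 3 rose in 12 m, and 2 without 12 m replicate 3. The probe set 1458176_at, at 95.1, 76.4 and 89.9 in IH5D against 60.3, 36.3 and 40.2 in Ctrl, was the only one of the 17 to pass in IH5D against Ctrl (0.97 ± 0.28, adjusted p = 0.0493).

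Cry1, a cryptochrome that represses CLOCK and BMAL1 with the PER proteins, read 42.97, 65.6 and 61.7 in IH5DR2, 68.9, 82.03 and 86.6 in IH5D, 73.9, 65.2 and 62.9 in IH28D, 45.3, 50.04 and 82.6 in 12 m, 70.1, 98.3 and 61.1 in Ctrl28 and 47.6, 65.6 and 55.4 in Ctrl. The IH5D arrays lay above all Ctrl and all IH5DR2 arrays, and the other groups overlapped with Ctrl. No comparison of Cry1 passed, and IH5D differed from Ctrl by 0.50 ± 0.24 (adjusted p = 0.185).

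Arntl, the activator of the loop, read 138, 134 and 154 in IH5DR2, 104, 102 and 69.3 in IH5D and 121, 107 and 133 in IH28D. It read 135, 124 and 148 in 12 m, 123, 139 and 149 in Ctrl28 and 102, 71.5 and 109.7 in Ctrl. The arrays of IH5DR2, 12 m and Ctrl28 lay above all Ctrl arrays and above all IH5D arrays, and IH5D was close to Ctrl. Against Ctrl, Arntl rose by 0.54 ± 0.19 in 12 m (adjusted p = 0.0219) and by 0.55 ± 0.19 in Ctrl28 (adjusted p = 0.0303), and the difference of 0.61 ± 0.19 in IH5DR2 fell short (adjusted p = 0.0626). Its dimmer probe set 1457740_at rose by 0.73 ± 0.30 in 12 m (adjusted p = 0.0483), and by the same fit without 12 m replicate 3 differed by 0.59 (adjusted p = 0.149).

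**Figure D2:**
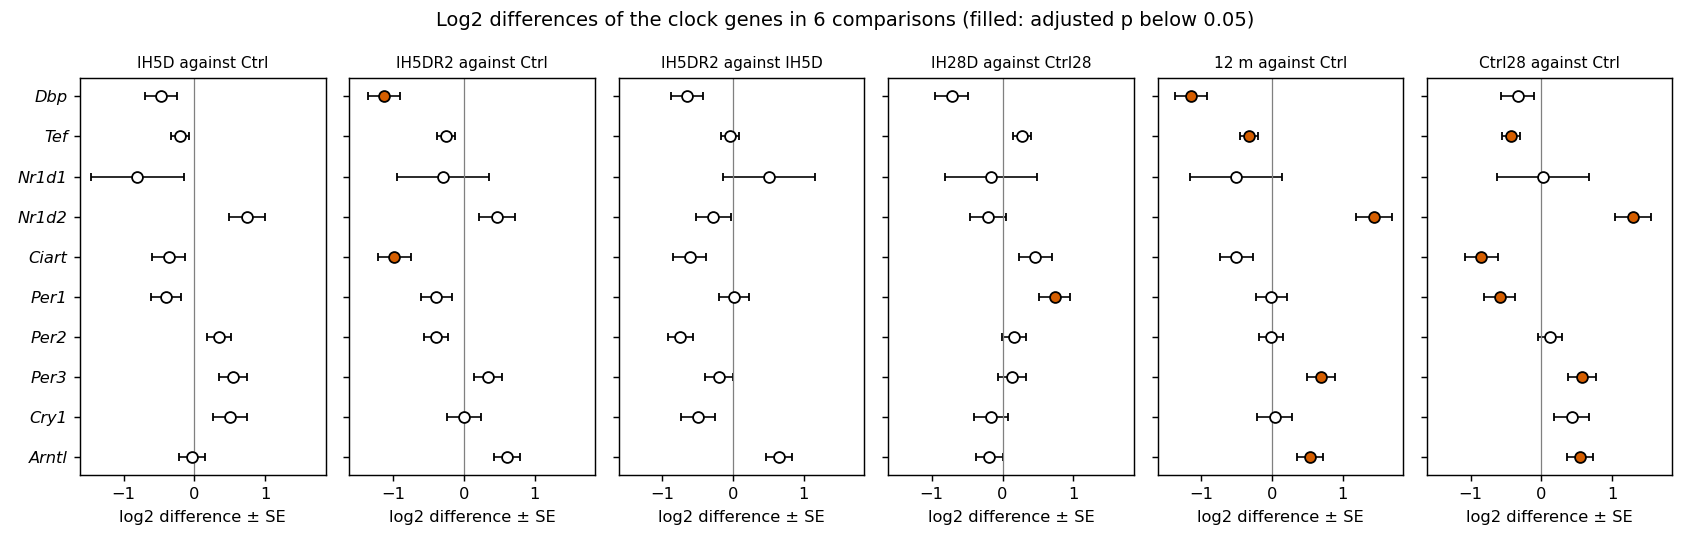
Log2 differences (x axis, ± SE) of the 10 clock genes in 6 comparisons, from the limma fit of all 18 arrays, filled where the adjusted p is below 0.05. Dbp and Ciart were filled in IH5DR2 against Ctrl, Per1 in IH28D against Ctrl28, 5 genes in 12 m against Ctrl and 6 in Ctrl28 against Ctrl.

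The end of 5 days of IHT was compared with no treatment. In IH5D against Ctrl none of the 10 genes passed, while 6.26% of all probe sets did (5.59% higher, 0.663% lower). Without adjustment 2 of the 10 passed, against 27.9% of all. By the methods' t-test no gene or other probe set passed after adjustment, and 2 of the 10 genes passed without it, against 21.1% of all probe sets. The groups did not overlap for 7 genes, 4 of them higher in IH5D (Per2, Per3, Nr1d2 and Cry1) and 3 lower (Per1, Dbp and Tef), where 40% of all probe sets did not overlap (22.1% higher, 17.9% lower). The median difference of the 10 genes was -0.12, against -0.00387 over all probe sets. Of 17 tested among 21 further clock genes, Sirt1 alone passed, a deacetylase that binds CLOCK and BMAL1. It averaged 78.2 ± 7.16 in IH5D and 35.1 ± 11.9 in Ctrl (SD, n = 3 arrays each, log2 difference 1.20 ± 0.29, adjusted p = 0.0291). Sirt1 was not raised against Ctrl by IHT alone, since it also rose in Ctrl28 (0.997, adjusted p = 0.0157) and 12 m (1.90, 0.000104). It rose in IH28D too (1.60, 0.00176), and the difference of 0.88 in IH5DR2 did not pass (0.0805). For the 10 genes the outcome depended on arrays outside the comparison. Without Ctrl28 replicate 1, Nr1d2 (adjusted p = 0.00188), Per3 (0.027) and Per1 (0.0429) passed. Without Ctrl replicate 1, Per3 (0.71, adjusted p = 0.0379) and Nr1d2 (0.90, 0.0451) passed. Leaving out 1 array at a time, 10 to 5274 of the 22932 probe sets passed, against 1435 with all arrays. Calls gained in such a fit therefore need not be particular to the clock genes.

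After 64 h of normoxia, Dbp and Ciart were below Ctrl and no clock gene was above it by the test. No hour is given for Ctrl, so treatment and the hour of sampling cannot be told apart here. In IH5DR2 against Ctrl, 2 of the 10 genes fell, where 0.82% of all probe sets fell, 3.88% rose and 4.7% changed in either direction. Dbp averaged 799 ± 201 in IH5DR2 and 1719 ± 253 in Ctrl, and Ciart 55.98 ± 8.02 in IH5DR2 and 111 ± 23.3 in Ctrl (SD, n = 3 arrays each). The groups did not overlap for 4 genes (Arntl higher and Dbp, Ciart and Per1 lower), where 39.4% of all probe sets did not overlap (21.7% higher, 17.7% lower), and the median difference of the 10 genes was -0.27, against 0.02 over all probe sets. None of the 17 further clock genes passed by limma. Of 10 glucocorticoid-induced genes 1 fell, with a median difference of -0.42, and their summed signal was 6730 to 7679 in IH5DR2, against 7551 to 9043 in Ctrl. By the methods' t-test neither passed after adjustment (Dbp 0.204, Ciart 0.229). Both calls depended on single arrays. Without 1 of the IH5DR2 arrays the adjusted p of Dbp was 0.0596 to 0.0861 and that of Ciart 0.0765 to 0.112. Without Ctrl replicate 2 these were 0.131 and 0.173, and without Ctrl replicate 3 they were 0.0546 and 0.0583. Over all alternatives the difference ran between -1.29 and -0.92 for Dbp and between -1.14 and -0.83 for Ciart. Without Ctrl28 replicate 1, which is in neither group, Arntl (adjusted p = 0.0221) and Nr1d2 (0.0235) passed as well, and Arntl also passed without Ctrl replicate 1 (0.0495). Leaving out 1 array at a time, 0 to 4915 of the 22932 probe sets passed, against 1077 with all arrays. Calls gained or lost in such a fit therefore need not be particular to the clock genes.

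IH5DR2 hippocampi, taken in the morning, were also compared with IH5D hippocampi, taken in the late afternoon. Per2, Dbp, Ciart, Nr1d2 and Cry1 were lower on every IH5DR2 array than on every IH5D array, and Arntl was higher. These 6 of the 10 genes did not overlap, where 15.1% of all probe sets did not (7.32% higher, 7.81% lower). No gene passed the test, nor did any of the 22932 probe sets (0%), and the methods' t-test called none either. Without adjustment 4 of the 10 genes passed by limma, against 3.82% of all probe sets, and 2 of the 10 by the methods' t-test, against 6.16% of all. The 4 by limma were Per2 (-0.74 ± 0.17, adjusted p = 0.424), Arntl (0.65 ± 0.19, adjusted p = 0.984), Dbp (-0.65 ± 0.23, adjusted p = 1) and Ciart (-0.62 ± 0.23, adjusted p = 1). Per1, Per3, Nr1d1 and Tef overlapped, with differences of 0.01, -0.20, 0.51 and -0.05. The dimmer probe sets departed in part from the brighter ones. For Per3, 1458176_at (-0.84 ± 0.28) and 1441445_at (-0.32 ± 0.24) were lower in IH5DR2 without overlap. For Dbp, 1418174_at (-0.29 ± 0.20) overlapped, as did 1457740_at of Arntl (-0.05 ± 0.30). None of the 17 further clock genes passed, and their median difference was -0.02, against -0.24 for the 10 genes. Recovery and the hour of sampling differ between the same arrays and cannot be told apart.

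**Figure D3:**
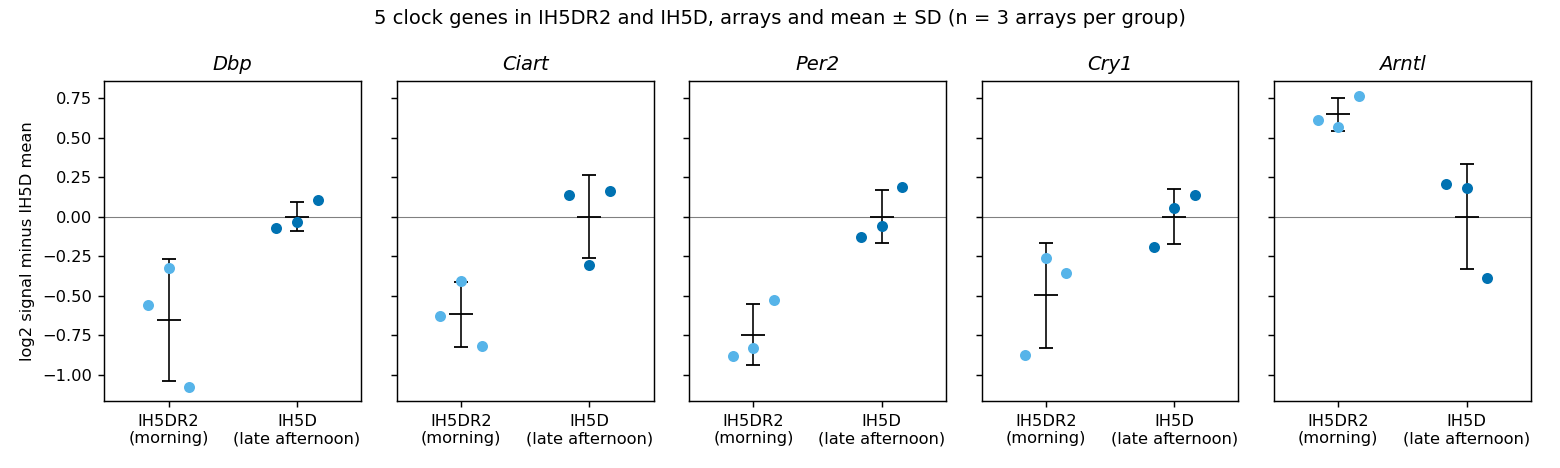
Log2 signals of 5 clock genes on IH5DR2 arrays (left, sacrificed around 9:00) and IH5D arrays (right, around 17:00), each minus the IH5D mean of the gene, with points for arrays and lines for mean ± SD (n = 3 arrays per group). Dbp, Ciart, Per2 and Cry1 lie lower on all IH5DR2 arrays and Arntl lies higher, and no adjusted p is below 0.05.

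IHT for 28 days was compared with the control kept alongside. Per1 rose, with 267 ± 37.5 in IH28D and 169.6 ± 76.4 in Ctrl28 (SD, n = 3 arrays each), and was the 1 gene of 10 to pass, where 7.79% of all probe sets passed (5.62% higher, 2.17% lower). The 2 groups overlapped for 9 of the 10 genes, Dbp being the exception with lower signals in IH28D, where 23% of all probe sets did not overlap (13.1% higher, 9.89% lower). The median difference of the 10 genes was -0.01, against 0.04 over all probe sets. Among the further clock genes 2 of 17 rose. They were Csnk1e, a kinase that marks PER proteins for breakdown (368 ± 50.95 in IH28D and 228 ± 35.4 in Ctrl28, log2 difference 0.69 ± 0.16, adjusted p = 0.0113), and Cry2, the second cryptochrome (348 ± 40.4 in IH28D and 249 ± 16.4 in Ctrl28, 0.48 ± 0.13, 0.0287). Of 9 immediate early genes, which neuronal activity induces, 1 rose (median difference 0.84), and the summed signal of all 10 listed, 1 of them below the minimum, was 3485 to 5456 in IH28D, against 2033 to 3650 in Ctrl28. Of 10 glucocorticoid-induced genes 2 rose (median 0.25), with a summed signal of 8978 to 9344 in IH28D, against 8695 to 10505 in Ctrl28. Without Ctrl28 replicate 1, Csnk1e (0.56, adjusted p = 0.0176) and Cry2 (0.51, 0.0134) still passed. Set against Ctrl in place of Ctrl28, IH28D differed by 0.05 (adjusted p = 0.828) for Csnk1e and by -0.06 (0.718) for Cry2. The part of the immediate early and glucocorticoid lists in the rise of Per1 was not tested.

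The call of Per1 needed nearly every array. It was lost on leaving out any 1 array other than 12 m replicate 3 or Ctrl28 replicate 1, with an adjusted p of 0.0515 to 0.161. Without Ctrl28 replicate 1, the array with the widest gap of 3' to 5' probe sets, Per1 differed by 1.08 (adjusted p = 0.000111) and Nr1d2 by -0.64 (adjusted p = 0.00894). In that fit 3220 of the 22932 probe sets passed. Dbp differed by -0.43 without that array (adjusted p = 0.157) and by -0.19 with the gap as a covariate (0.706). It passed without Ctrl28 replicate 3 (-0.92, adjusted p = 0.0246), without 12 m replicate 3 (0.0493) and, at 0.05, without IH5DR2 replicate 3. Set against Ctrl in place of Ctrl28, IH28D showed other genes. Per1 then differed by 0.15 ± 0.22 (adjusted p = 0.602), Dbp fell by 1.06 ± 0.23 (adjusted p = 0.00382), and Nr1d2 rose by 1.09 ± 0.25 (adjusted p = 0.00529) and Per3 by 0.70 ± 0.20 (adjusted p = 0.0148), 3 of 10 genes where 31.5% of all probe sets passed (19.8% higher, 11.7% lower).

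Whether the change at 28 days differed from that at 5 days was tested as the difference between IH28D minus Ctrl28 and IH5D minus Ctrl, which share no array. Per1 was the 1 gene of 10 to pass, with a difference of 1.14 ± 0.31 (adjusted p = 0.0326), where 7.12% of all probe sets passed (4.83% higher, 2.29% lower). It was 0.74 at 28 days and -0.40 at 5 days. Nr1d2 (-0.95 ± 0.36, adjusted p = 0.115), Ciart (0.83 ± 0.33, 0.14) and Tef (0.48 ± 0.18, 0.11) did not pass, and without Ctrl28 replicate 1 Per1 (1.48, 0.000102), Nr1d2 (-1.38, 0.000173) and Ciart (1.01, 0.0266) did. Without that array 5851 of the 22932 probe sets passed. Of the further clock genes, Cry2 (0.83 ± 0.18, adjusted p = 0.0112) and Csnk1e (0.79 ± 0.22, 0.0371) passed, also without Ctrl28 replicate 1 (0.86, 0.00204 and 0.66, 0.0228). Both were lower in Ctrl28 than in Ctrl (-0.55 for Cry2 and -0.65 for Csnk1e). The call of Per1 was lost without any 1 of the IH5D arrays, IH28D replicate 2 or 3, Ctrl28 replicate 2 or 3, or Ctrl replicate 2 or 3 (adjusted p 0.0529 to 0.0935).

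At 12 months the clock genes changed in both directions. Against Ctrl, Nr1d2, Per3 and Arntl rose and Dbp and Tef fell, 5 of the 10 genes, where 50.6% of all probe sets passed (26.5% higher, 24.1% lower), a share near that of the whole array. Nr1d2 averaged 1184 ± 77.9 in 12 m and 440.0 ± 88.9 in Ctrl, and Dbp 783 ± 178 in 12 m and 1719 ± 253 in Ctrl (SD, n = 3 arrays each). The groups did not overlap for the same 5 genes, where 61.3% of all probe sets did not (29.7% higher, 31.6% lower), and the median difference was -0.00913 for the 10 genes and -0.08 for all. Over the 17 tested probe sets of the genes, 7 rose and 3 fell. The call of Tef was lost without any 1 of the 12 m arrays or Ctrl replicate 1 or 2 (adjusted p 0.0543 to 0.181), that of Arntl without 12 m replicate 3 (0.0693) or Ctrl replicate 2 (0.139), and that of Per3 without Ctrl replicate 3 (0.0584). Ciart passed without 12 m replicate 3 (-0.71, adjusted p = 0.0272), Ctrl replicate 3 (-0.66, 0.0481) or Ctrl28 replicate 1 (-0.50, 0.0498). Without 12 m replicate 3, 4 of the 10 genes passed, where 45.7% of all probe sets did, with Nr1d2 at 1.40 (adjusted p = 0.00145), Per3 at 0.73 (0.015) and Dbp at -1.32 (0.000678). By the methods' t-test 1 of the 5 genes passed after adjustment, and Dbp did not (0.0541).

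Against Ctrl28, the 12 m group gave 1 call of 10, where 16.8% of all probe sets passed (9.87% higher, 6.97% lower). Dbp fell by 0.81 ± 0.23 (adjusted p = 0.0216), with 783 ± 178 in 12 m and 1414 ± 530.4 in Ctrl28, and Nr1d2 differed by 0.15 ± 0.25 (adjusted p = 0.723), Per3 by 0.12 ± 0.20 (adjusted p = 0.717) and Arntl by -0.01 ± 0.19 (adjusted p = 0.981). Dbp no longer passed without Ctrl28 replicate 1 (-0.53, adjusted p = 0.0707), Per1 rose by 0.92 (adjusted p = 0.000729), and the differences of Nr1d2 (-0.28, 0.213) and Per3 (-0.09, 0.794) had the opposite sign. In that fit 3971 of the 22932 probe sets passed. Without 12 m replicate 3 Dbp fell by 0.99 (adjusted p = 0.0182) as the 1 gene called, where 10.1% of all probe sets passed. The second probe set of Dbp, 1418174_at, did not pass against Ctrl28 and its groups overlapped (-0.28 ± 0.20, adjusted p = 0.349). It differed by -0.04 (0.907) without Ctrl28 replicate 1 and by -0.44 (0.203) without 12 m replicate 3. The fall of Dbp against Ctrl28 thus rested on the brighter probe set.

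Of the 17 further clock genes, 6 rose and 3 fell at 12 months against Ctrl, where 50.6% of all probe sets passed. The 4 of smallest p all rose. Sirt1 averaged 127 ± 8.82 in 12 m and 35.1 ± 11.9 in Ctrl (log2 difference 1.90 ± 0.29, adjusted p = 0.000104). Nampt, which makes the cofactor that SIRT1 needs, averaged 303 ± 48.96 in 12 m and 125 ± 22.9 in Ctrl (1.27 ± 0.23, adjusted p = 0.000309). Arntl2, a paralog of Arntl, averaged 41.6 ± 5.24 in 12 m and 12.7 ± 2.42, below the minimum of 20, in Ctrl (1.72 ± 0.31, adjusted p = 0.000317). Its means in Ctrl28 (15.8) and IH5DR2 (14.0) were also below 20, and those in IH5D and IH28D were 22.2 and 27.9. The overall mean by which Arntl2 entered the test thus leaned on 12 m, its highest group. Rora, a nuclear receptor that activates Arntl, averaged 261 ± 125 in 12 m and 55.8 ± 15.9 in Ctrl (2.16 ± 0.40, adjusted p = 0.000383), replicate 3 reading 405 and the other 12 m arrays 190.1 and 187. Against Ctrl28, 5 rose and 1 fell, where 16.8% of all probe sets passed. The 4 of smallest p were Arntl2 (1.40 ± 0.31, adjusted p = 0.00622), Csnk1d (-0.74 ± 0.17, 0.0066), Rorb (1.71 ± 0.40, 0.00865) and Rora (1.48 ± 0.40, 0.018). Without Ctrl28 replicate 1 Rora (0.89, adjusted p = 0.0546), Sirt1 (0.46, 0.163) and Clock (0.64, 0.0974) no longer passed, and Arntl2 (1.36, 0.0133), Csnk1d (-0.49, 0.00856) and Rorb (1.11, 0.0193) did. Without 12 m replicate 3, 3 rose and 1 fell against Ctrl28, and Rora (1.11, adjusted p = 0.0912) and Sirt1 (0.94, 0.0841) no longer passed. Rorb, which read 348 on that array and 128 and 144 on the other 12 m arrays, passed against Ctrl28 without it (1.26, 0.0494). Against Ctrl, 6 rose and 2 fell without that array, Sirt1 (1.93, adjusted p = 0.000506), Nampt (1.42, 0.000526), Arntl2 (1.63, 0.00206) and Rora (1.80, 0.0028) among those that rose. Csnk1d no longer passed against Ctrl (-0.45, 0.0581).

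**Figure D4:**
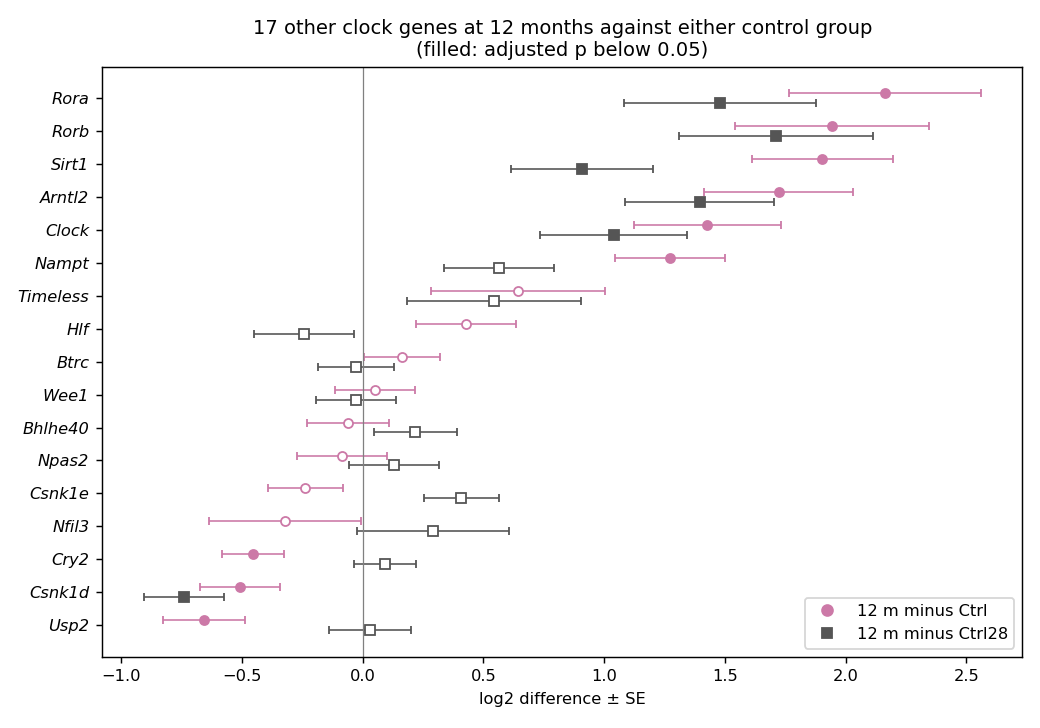
Log2 differences (x axis, ± SE) of the 17 tested further clock genes in 12 m against Ctrl (circles) and against Ctrl28 (squares), filled where the adjusted p is below 0.05. Rora, Rorb, Sirt1, Arntl2 and Clock are filled and higher against both controls, and Csnk1d is filled and lower against both. Without Ctrl28 replicate 1 the calls of Rora, Sirt1 and Clock against Ctrl28 were lost.

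Other gene lists were also read at 12 months against Ctrl, where 50.6% of all probe sets passed. Of 9 immediate early genes 7 rose against Ctrl (median difference 1.08), and Per1, which such stimuli also induce, did not. The summed signal of the 10 listed was 4700.1 to 8177 in 12 m and 2562 to 3217 in Ctrl. Of the 9, 7 also rose against Ctrl28 (median 1.58). There Per1 differed by 0.58 (adjusted p = 0.0754), and by 0.92 (0.000729) without Ctrl28 replicate 1. Against Ctrl, 8 of 10 choroid plexus markers fell (median -3.23), and of 9 markers of hippocampal neurons 4 fell and 1 rose (median -0.63). Of 10 glucocorticoid-induced genes 4 fell and 1 rose (median -0.33). Without 12 m replicate 3, 4 immediate early genes rose, 6 choroid plexus markers fell, 3 neuron markers fell and 2 rose, and 2 glucocorticoid-induced genes fell and 1 rose. In that fit 45.7% of all probe sets passed. The part of these lists and of the 3' to 5' gap in the differences of the clock genes was not tested, apart from the fit with the gap as a covariate, in which Tef no longer passed (-0.26, adjusted p = 0.0567) and Ciart did (-0.61, 0.0295).

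The young control groups differed from each other in several clock genes. In Ctrl28 against Ctrl, Nr1d2, Per3 and Arntl rose and Ciart, Tef and Per1 fell, 6 of the 10 genes where 32.9% of all probe sets passed (16.8% higher, 16.1% lower). Nr1d2 averaged 1156 ± 495 in Ctrl28 and 440.0 ± 88.9 in Ctrl, and Ciart 62.5 ± 16.3 in Ctrl28 and 111 ± 23.3 in Ctrl (SD, n = 3 arrays each). The groups did not overlap for 4 of these genes (Nr1d2 and Arntl higher, Ciart and Tef lower), where 35.7% of all probe sets did not (16.2% higher, 19.6% lower). Of the further clock genes 3 rose and 3 fell, led by Cry2 (-0.55 ± 0.13, adjusted p = 0.00401), Csnk1e (-0.65 ± 0.16, 0.00503), Usp2 (-0.69 ± 0.17, 0.00534) and Sirt1 (0.997 ± 0.29, 0.0157). All 6 genes passed without Ctrl28 replicate 1 and so did Dbp (-0.62, adjusted p = 0.0129), where 51.2% of all probe sets passed, and Nr1d2 then differed by 1.73 (2.8e-07) and Per1 by -0.93 (9.35e-05).

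Single arrays decided several of these calls. Leaving out Ctrl28 replicate 3 ended those of Per1 (adjusted p = 0.279), Per3 (0.123), Arntl (0.11) and Ciart (0.0716), and leaving out Ctrl28 replicate 2 those of Per1 (0.154), Per3 (0.158) and Arntl (0.0803). Leaving out Ctrl replicate 2 ended those of Per1 (0.164), Per3 (0.0688), Arntl (0.178), Ciart (0.0672) and Tef (0.0906), and leaving out Ctrl replicate 3 those of Per1 (0.0746) and Per3 (0.184). Per1 was lost without any 1 array but Ctrl28 replicate 1. Nr1d2 passed whichever array was left out. In a fit of Ctrl28 and Ctrl alone none of the 6 passed (Nr1d2 adjusted p = 0.0518), nor did any by the methods' t-test after adjustment (Nr1d2 0.342). No hour of sampling is given for either control group and the 3' to 5' gap differed between them, so these and the 28 days cannot be told apart.

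**Figure D5:**
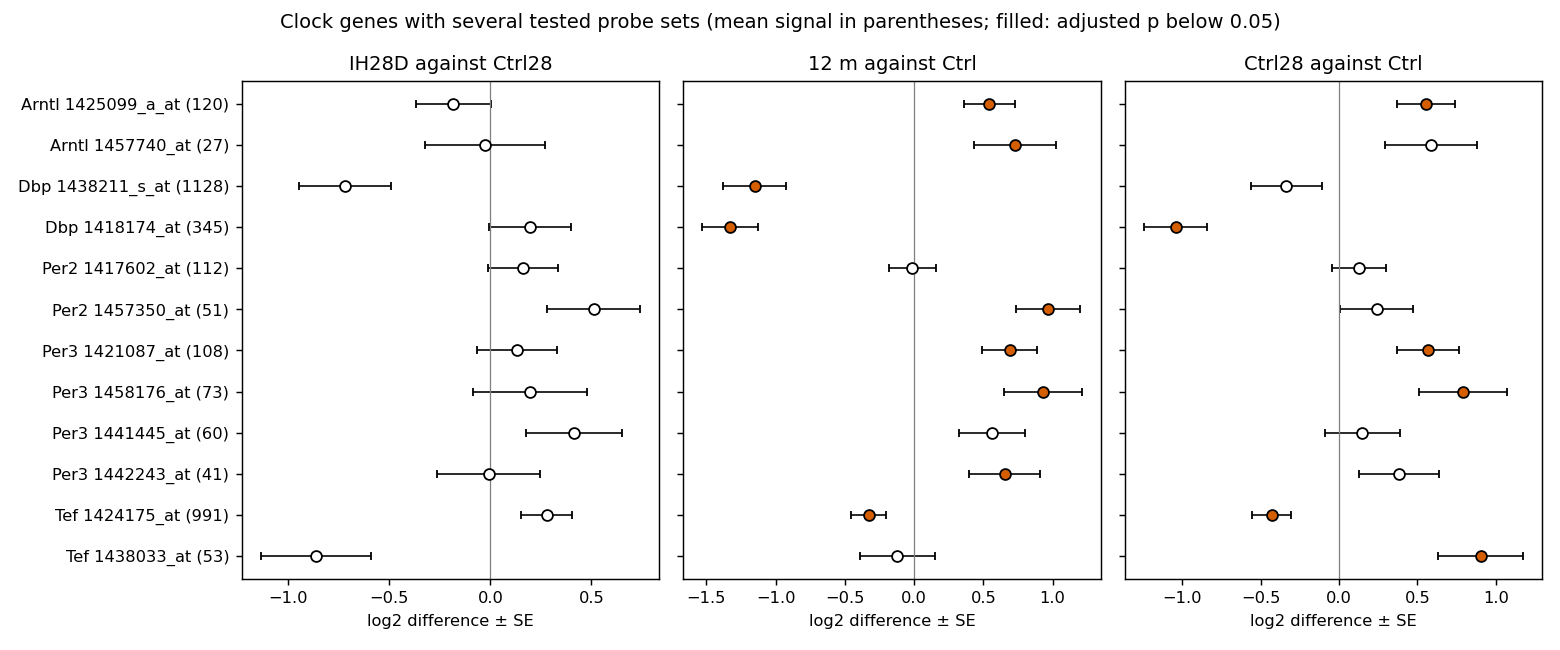
Log2 differences (x axis, ± SE) of the 12 tested probe sets of Arntl, Dbp, Per2, Per3 and Tef in 3 comparisons, with the mean signal of each probe set over 18 arrays in parentheses, filled where the adjusted p is below 0.05. The 4 probe sets of Per3 lie on the higher side in 12 m against Ctrl, and the 2 of Tef are both filled with opposite signs in Ctrl28 against Ctrl.

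The genes whose signals followed Dbp most closely over the 18 arrays, among 7105 genes with a mean signal above 100, were Pim3, a kinase (Pearson r = 0.952), Tmem229b, a transmembrane protein (0.944), Snx17, an endosomal sorting protein (0.927), Atp6v1e1, a subunit of the vacuolar proton pump (0.911), and Snrnp25, a protein of the minor spliceosome (0.907). With group means removed the correlations were 0.876, 0.852, 0.751, 0.800 and 0.840 in the same order. Pim3 averaged 314 ± 31.5 in IH5DR2, 441 ± 16.9 in IH5D, 345 ± 13.4 in IH28D, 366 ± 72.5 in 12 m, 498 ± 105 in Ctrl28 and 579.7 ± 80.3 in Ctrl (SD, n = 3 arrays per group), which has the high Ctrl and the low IH5DR2 of Dbp. All values come from the same arrays and share their scaling, and the 10 clock genes were left out of this search beforehand.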

How the data were processed

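RNA of 18 hippocampal samples was hybridised to Affymetrix mouse genome arrays, 1 per sample. The authors derived a signal for each probe set by MAS5 and scaled the arrays, and the deposited values are log2 of that signal, as the equal trimmed means of the unlogged values show. Software versions are not given in the sources used here. Of 45101 probe sets, 64 are manufacturer controls and were not tested. The platform annotation names 1 gene for 34945 probe sets, several for 932 and none for 9160.

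The methods took signals above 20 as expressed. Here this was applied to the mean unlogged signal over the 18 arrays, which kept 22932 probe sets. They were fitted together in limma 3.58.1 (under R 4.3.3, tables read by the data.table package, version 1.17.8), each of the 6 groups having its own mean, which left 12 degrees of freedom, with eBayes and a variance trend. P-values were adjusted by Benjamini-Hochberg over all of them at a threshold of 0.05. The procedure was tested on simulated data. The number of arrays limits the precision, and an exact permutation test of 3 arrays against 3 cannot go below p = 0.1. The methods name an analysis for unequal variances at an unadjusted p. Its form for a pair of groups, called the methods' t-test here, was run on unlogged signals and read before and after adjustment.

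The 10 genes and all gene lists were chosen with earlier results of these data known. All 10 genes are named. Of 21 further clock genes 17 were tested, and up to 4 called genes of smallest p are named per comparison. The genes most like Dbp are the 5 of highest correlation outside the 10 genes. Alternatives changed the minimum signal, the scaling, the arrays in the fit, the test, the control group and the handling of several probe sets per gene, added a replicate block or the 3' to 5' gap, and left out each array in turn. The 12 m group against Ctrl28 without Ctrl28 replicate 1, and without 12 m replicate 3, was added after seeing the data.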

Additional observations from a re-analysis of the deposited data

Results flagged for a closer look

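The change of Per1 after 28 days of IHT and that after 5 days differed by 1.14 on the log2 scale (adjusted p = 0.0326, limma test of the difference itself), being 0.74 in IH28D against Ctrl28 and -0.40 in IH5D against Ctrl. All 3 IH28D arrays were above 2 of the 3 Ctrl28 arrays, and all 3 IH5D arrays were below all 3 Ctrl arrays. The Ctrl28 array within the IH28D range, replicate 1, also had the widest 3' to 5' gap (2.39), and without it the difference was 1.48 (adjusted p = 0.000102). Without other single arrays of these groups the call was lost in several cases, with an adjusted p of 0.0529 to 0.0935. The control groups themselves differed, with Per1 means of 170 in Ctrl28 and 240 in Ctrl. IH28D differed from Ctrl by 0.15 (adjusted p = 0.602, limma).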

How the results depend on the processing

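Counts of clock genes called changed with the processing in 6 of the 7 comparisons, and only that of IH5DR2 against IH5D stayed at 0 throughout. With no minimum signal, IH28D against Ctrl28 gave 0 and Ctrl28 against Ctrl 3. Quantile normalization, median centring and the replicate block each gave 0 for IH28D against Ctrl28, and median centring also 0 for the difference between the changes at 28 and 5 days. Fitting no other groups than those compared gave 2 in IH5D, 4 in IH5DR2, 0 in IH28D, 0 in Ctrl28 and 0 for the difference. The methods' t-test gave, after adjustment, 0 in IH5DR2, 0 in IH28D, 1 in 12 m and 0 in Ctrl28. With the gap of 3' to 5' probe sets in the model there were 4 in IH5D, 4 in IH5DR2, 2 in IH28D and 4 for the difference. IH28D against Ctrl gave 3, none of them Per1, and 12 m against Ctrl28 gave 1, or, without Ctrl28 replicate 1 (chosen after seeing the data), another 1. Without 12 m replicate 3, also chosen after seeing the data, it gave the same 1. Leaving out 1 array at a time gave 0 to 3 in IH5D, 0 to 4 in IH5DR2, 0 to 2 in IH28D, 3 to 6 in 12 m, 1 to 7 in Ctrl28 and 0 to 3 for the difference. Signs turned with the mean of all probe sets for Per2 in 12 m (0.48, adjusted p = 0.0246) and Tef in Ctrl28 (0.24, 0.216), for Nr1d2 in IH28D against Ctrl (1.09, 0.00529), and for Arntl (-0.00836, 0.981) and Tef (0.10, 0.612) in 12 m against Ctrl28. In the last comparison without Ctrl28 replicate 1 they also turned for Per1 (0.92, 0.000729), Per3 (-0.0853, 0.794), Nr1d2 (-0.28, 0.213), Arntl (-0.0843, 0.81) and Tef (0.0204, 0.931), and without 12 m replicate 3 for Arntl (-0.0722, 0.861) and Tef (0.105, 0.672). Of differences not called under either setting, 32 turned sign on leaving out an array and 28 under another alternative. The causes were not tested.

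Over all probe sets, 1435 passed in IH5D, 1077 in IH5DR2, 0 in IH5DR2 against IH5D, 1787 in IH28D, 11601 in 12 m, 7537 in Ctrl28 and 1633 for the difference. No minimum gave 762 in IH5D and 493 in IH5DR2, and quantile normalization 707 in IH5DR2. The compared groups alone gave 3586, 3697, 25, 14, 11654, 2216 and 817 in the order above, the methods' t-test 0, 0, 0, 1, 2919 and 0 without the difference, and the gap 5597, 5030, 7, 3341, 13937, 11041 and 6375. With 1 probe set per gene, or the mean of a gene's probe sets, fewer features were tested, and 760 and 415 passed in IH5D, 654 and 329 in IH5DR2, 990 and 888 in IH28D, 6208 and 6070 in 12 m, 4409 and 4518 in Ctrl28 and 1125 and 1026 for the difference. IH28D against Ctrl gave 7215 and 12 m against Ctrl28 gave 3862, or 3971 without Ctrl28 replicate 1 and 2324 without 12 m replicate 3. Leaving out 1 array gave 10 to 5274 in IH5D, 0 to 4915 in IH5DR2, 0 to 6 in IH5DR2 against IH5D, 864 to 3220 in IH28D, 8510 to 13481 in 12 m, 4492 to 11747 in Ctrl28 and 706 to 5851 for the difference. Median centring turned 889 higher and 188 lower in IH5DR2 into 523 and 213, and 1289 and 498 in IH28D into 845 and 708, and it moved the median of all probe sets in 12 m to -0.20, from -0.08. Same-numbered arrays did not deviate together (correlations of residuals -0.32 to 0.30), 6 of 18 arrays correlated best with their own number, and the replicate block gave 775 in IH5D, 488 in IH5DR2 and 1 in IH5DR2 against IH5D.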
